A study of Mus musculus with 47 samples.

Results

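The genes described here are the transcription factors that carry the timing of the circadian clock to its output genes and that stabilize the clock itself: Dbp, Tef, Hlf, Nfil3, Nr1d1, Nr1d2, Rora, Rorb, Bhlhe40 and Bhlhe41. They were found by symbol, taking each probeset of the Affymetrix mouse whole-genome array whose annotation gave 1 of these symbols and no other, which left 26 of 45037 probesets for the 10 genes. Each gene was read first from its brightest probeset. RNA came from the medial prefrontal cortex (PFC) of individual adult male C57BL/6J mice, 1 array for each mouse. CIE mice received chronic intermittent ethanol by vapor held at 10 to 13 mg/l of chamber air, 16 hours a day for 4 days followed by 7 days of abstinence, over 4 such cycles. Each cycle was started with an injection of ethanol (1.6 g/kg) and of pyrazole (1 mmol/kg), which blocks alcohol dehydrogenase. Ctrl mice were placed in air chambers and were given saline with the same pyrazole, so that pyrazole, handling and chamber housing are common to all groups. Mice were killed 0h, 8h or 72h after the last chamber session or 7d after it, which gave 8 groups of 6 mice, except 5 mice for CIE 8h. The 0h, 72h and 7d harvests lie whole days apart, whereas the 8h harvest falls at another time of day, so Ctrl 8h against the other Ctrl groups is the reference for time of day. The clock hour of the harvests is not given in the sources used here.

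In the molecular clock, CLOCK or NPAS2 pairs with BMAL1 (encoded by Arntl) and binds E-boxes in the genes of its own inhibitors, the PER and CRY proteins, and of many of the factors treated here. DBP, TEF and HLF are the proline and acidic amino acid-rich (PAR) basic leucine zipper activators, which bind D-box elements in output genes, and NFIL3 (E4BP4) represses through the same element. REV-ERB alpha and beta (Nr1d1, Nr1d2) repress, and ROR alpha and beta (Rora, Rorb) activate, genes that hold the ROR response element (RORE), Arntl and Nfil3 among them. BHLHE40 (DEC1) and BHLHE41 (DEC2) compete for E-boxes. Dbp and Nr1d1 transcripts are among the most strongly cycling in many tissues, and Bhlhe40 is also induced by neuronal activity.

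Array medians lay between 6.39 and 6.42 on the log2 scale, and each array correlated with the rest at a mean of 0.967 to 0.994. The lowest belonged to CIE 8h mouse 15, so results at 8h are also given without it. The labels put all mice in repeat group 1 except 3 Ctrl 8h and 2 CIE 8h mice in repeat group 2, and the authors adjusted for repeat group before deposit. As repeat group 2 holds 8h mice alone, a shift between repeat groups and a shift between 8h and the other harvests cannot be told apart in them, and 8h results are also given within each repeat group. Of 10 cortical neuron markers, 9 were measured, with an average log2 level from 10.07 to 10.58 over the mice of all groups. The average of 11 striatal markers reached 10.28 in 1 CIE 0h mouse, against 8.08 to 8.61 in Ctrl 0h mice. In bulk tissue, fewer cells of a type and less RNA per cell cannot be told apart.

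Promoter windows, from 250 bases before to 50 bases after a RefSeq start site (GRCm38.p6), were on hand for 9 of the 10 genes, 11 windows in all, and not for Bhlhe40. They are shown because clock factors are known to regulate each other through short elements in such windows, and each stretch is 100 bases that hold a match to one. The elements searched, on both strands, were the E-box CACGTG, its variant CACGTT, the D-boxes TTATGTAA and TTACGTAA, and the RORE cores TAGGTCA and TGGGTCA. None of these strings contains another. The match is in capitals, and stretches are printed 5′ to 3′ on the strand of the gene.
Tef, first start site, chr15:81802499-81802598, plus strand, E-box: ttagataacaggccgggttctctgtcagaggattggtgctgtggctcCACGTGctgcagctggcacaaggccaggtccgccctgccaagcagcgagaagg
Tef, second start site, chr15:81811229-81811328, plus strand, E-box: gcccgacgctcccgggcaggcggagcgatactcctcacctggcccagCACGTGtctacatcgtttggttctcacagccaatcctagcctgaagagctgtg
Bhlhe41, chr6:145865521-145865620, minus strand, E-box: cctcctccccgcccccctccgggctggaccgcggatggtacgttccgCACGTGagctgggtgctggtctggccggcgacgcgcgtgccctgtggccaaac
Nr1d1, chr11:98775378-98775477, minus strand, E-box variant read on the other strand: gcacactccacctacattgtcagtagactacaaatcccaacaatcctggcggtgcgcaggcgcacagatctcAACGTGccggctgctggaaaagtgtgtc
Nfil3, chr13:52981040-52981139, minus strand, RORE core read on the other strand: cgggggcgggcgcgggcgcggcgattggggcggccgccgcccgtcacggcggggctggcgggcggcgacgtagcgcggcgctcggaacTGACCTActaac
The E-boxes began 127 and 138 bases before the 2 Tef start sites and 153 bases before that of Bhlhe41. The variant began 28 bases before the Nr1d1 start site and the RORE core 12 bases before that of Nfil3. Another variant lay 234 bases before the second Rorb start site. The windows of Dbp, Hlf, Nr1d2 and Rora held none of the strings, and no member window held a D-box. Of 32851 promoter windows, 7.15% held the E-box, 4.68% the variant, 1.06% a D-box and 6.45% a RORE core, so single matches are common, and a match is a description of the letters only.

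At the end of exposure, Dbp, Tef and Nr1d2 were higher and Nfil3 was lower in CIE than in Ctrl mice, and at 8h Tef had turned to a lower level in CIE mice. At 0h, 5 of the 26 probesets passed the LIMMA test across all probesets at a false discovery rate (FDR) ≤ 0.01, 4 higher and 1 lower in CIE, where 7.28% of all probesets passed, 3.69% higher and 3.58% lower. The same 5 probesets had no overlap between the 6 CIE and the 6 Ctrl mice, which held for 7.01% of all probesets. At 8h, 1 of 26 passed, and it was lower, where 3.39% of all probesets passed and 1.11% were lower. That count lies near the share for all probesets. At 8h, 19 of 26 probesets were lower in CIE, with a median difference of -0.26 on the log2 scale against 0.01 over all probesets. Probesets of the same gene are counted separately there and are not independent. Some falls were much larger within repeat group 2 than within repeat group 1 (Nr1d2 1416959_at, -1.87 against -0.28), and others were alike (Dbp 1438211_s_at, -0.37 against -0.31). No member passed at 72h or at 7d by LIMMA, where 0.528% and 0.948% of all probesets passed, and 1 and 4 of the 26 reached an unadjusted p of 0.05.

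**Figure D1:**
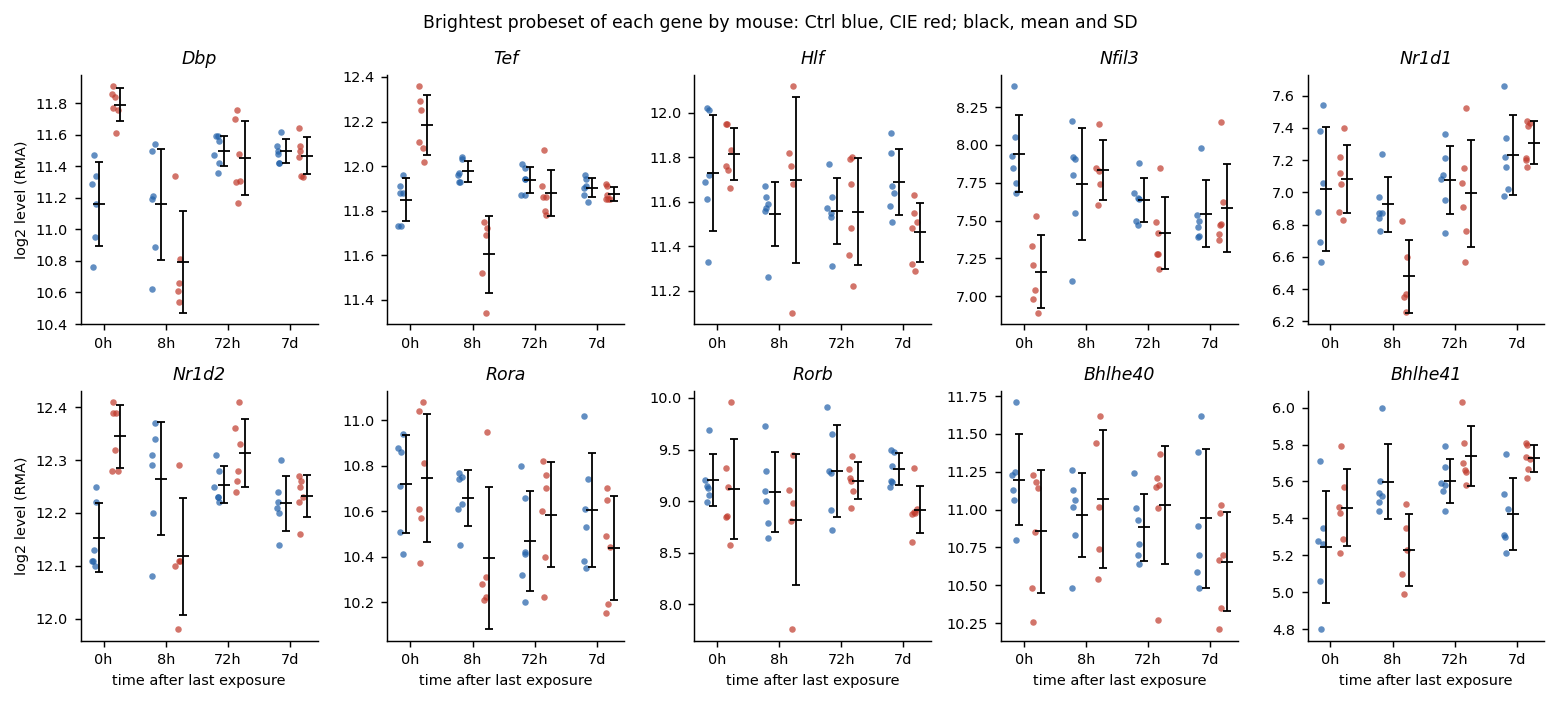
Log2 level of the brightest probeset of each of the 10 genes (y axis, RMA values; each panel has its own range, not starting at 0) by time after the last exposure (x axis), 1 point per mouse, blue for Ctrl and red for CIE, with the group mean and SD in black. Dbp, Tef and Nr1d2 lie above and Nfil3 lies below the Ctrl mice in all 6 CIE mice at 0h, and Tef lies below them in all 5 CIE mice at 8h.

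**Figure D2:**
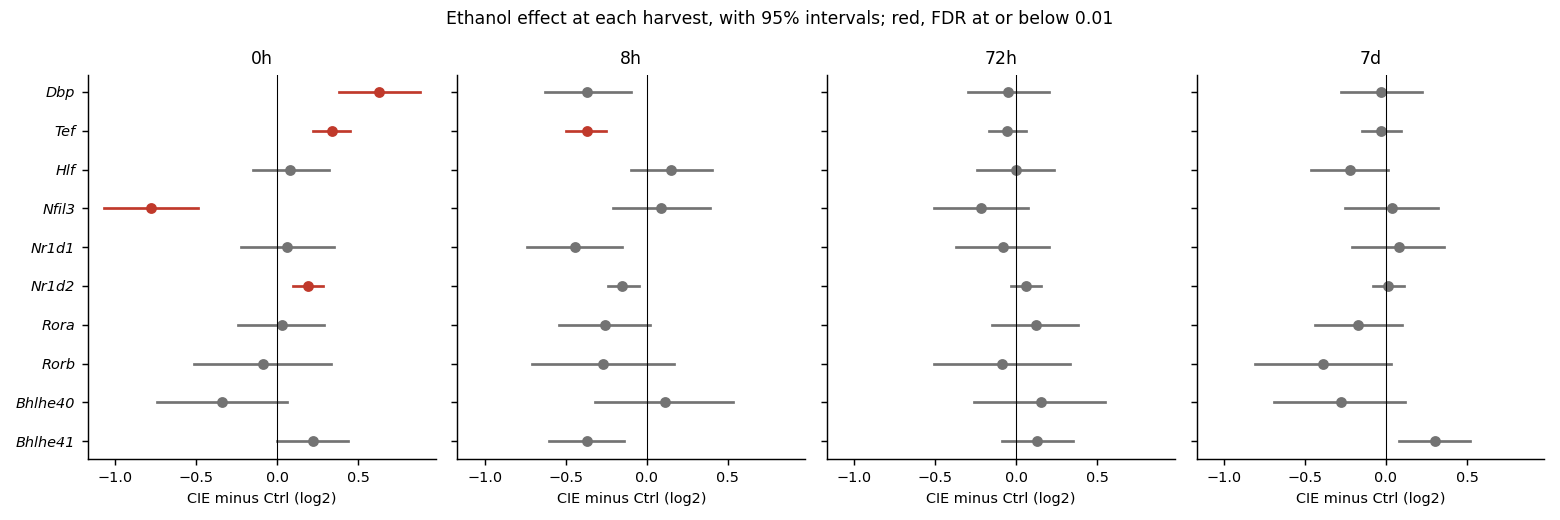
CIE minus Ctrl difference on the log2 scale (x axis) for the brightest probeset of each gene (y axis) at the 4 harvests, with 95% confidence intervals; red marks FDR ≤ 0.01. Dbp, Tef, Nfil3 and Nr1d2 are red at 0h and Tef at 8h, and none at 72h or 7d.

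Dbp encodes the best known PAR activator. At 0h its log2 level (1438211_s_at) ran from 10.76 to 11.47 with a median of 11.23 in Ctrl mice, and from 11.61 to 11.91 with a median of 11.80 in CIE mice. Every CIE mouse lay above every Ctrl mouse. The difference of 0.63 ± 0.12 (SE, 6 mice per group), or 1.55-fold, had an adjusted p of 4.60e-04 (LIMMA). The second Dbp probeset, 1418174_at, rose from a mean of 9.71 to 10.54, a difference of 0.83 ± 0.12 or 1.78-fold with an adjusted p of 1.14e-05. Over the 47 arrays, with group means removed, both Dbp probesets followed each other with a Pearson r of 0.79. At 8h the direction was the other way. The CIE mice were at 10.54, 10.61, 10.66, 10.81 and 11.34, and the Ctrl mice ran from 10.62 to 11.54 with a median of 11.20. The groups overlapped through the highest CIE and the lowest Ctrl mouse, and the difference of -0.37 (95% interval -0.63 to -0.10, adjusted p = 0.0586) was not called. Within repeat group 1 it was -0.31 and within repeat group 2 -0.37. At 72h and 7d the differences were -0.05 and -0.03, with intervals from -0.30 to 0.20 and from -0.28 to 0.22.

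Ordered by mean, Dbp stood highest in CIE 0h (11.79 ± 0.11 SD), then in Ctrl 72h (11.50 ± 0.10), Ctrl 7d (11.49 ± 0.08), CIE 7d (11.47 ± 0.12) and CIE 72h (11.45 ± 0.24), which lay within 1 SD of each other. Ctrl 0h (11.16 ± 0.26) and Ctrl 8h (11.16 ± 0.35) came next with equal means, and CIE 8h was lowest (10.79 ± 0.32). The Ctrl 0h mice themselves stood low. Against the mean of Ctrl 72h and 7d, 1418174_at fell by 0.51 in Ctrl 0h mice (adjusted p = 0.00251, LIMMA; 2.34% of all probesets were called), and 1438211_s_at differed by -0.34 (adjusted p = 0.0461). With the other 18 Ctrl mice as the reference in place of Ctrl 0h, a comparison chosen after the values were seen, where 9.49% of all probesets were called, the excess of CIE 0h mice was 0.41 (adjusted p = 0.00369) and 0.43 (0.00207) for 1438211_s_at and 1418174_at. Both differences were smaller than those against Ctrl 0h, and both were called. These 18 mice include Ctrl 8h, killed at another time of day and low in Dbp (11.16 against 11.50 and 11.49 in Ctrl 72h and 7d). CIE 0h against Ctrl 72h and 7d alone was not tested. Wherever the other 18 Ctrl mice serve as the reference below, Ctrl 8h mice are among them. An F test over the 4 Ctrl groups called 1418174_at alone of the 26 member probesets (adjusted p = 0.00964), where 1.72% of all probesets were called.

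Tef encodes a second PAR activator, and it was the only member called at both 0h and 8h. At 0h the log2 level of 1424175_at ran from 11.73 to 11.96 (median 11.88) in Ctrl mice and from 12.02 to 12.36 (median 12.18) in CIE mice. The groups did not overlap, and the rise of 0.34 ± 0.06 (SE), or 1.26-fold, had an adjusted p of 9.65e-05. At 8h the CIE mice were at 11.34, 11.52, 11.69, 11.72 and 11.75, and the Ctrl mice between 11.93 and 12.04 (median 11.96). Again no CIE mouse overlapped the Ctrl mice, but now from below, and the fall of 1.30-fold (log2 -0.37 ± 0.06) had an adjusted p of 2.59e-04. Tef was lower within repeat group 1 (-0.23) and within repeat group 2 (-0.58). With the repeat group 1 arrays alone the 8h call was lost (adjusted p = 0.0472), and without mouse 15 it held at -0.31 (adjusted p = 0.00193). The Ctrl group means of Tef stayed between 11.85 and 11.98 at all 4 harvests, and CIE 72h (11.88 ± 0.11) and CIE 7d (11.88 ± 0.03) lay in that range.

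The other Tef probesets had lower signals, with means of 7.94 and 6.95 over the 47 arrays, and were not called at 0h or 8h. 1438033_at differed by 0.02 ± 0.33 (SE) at 0h and by -0.61 ± 0.34 at 8h, where mouse 15 stood at 5.77 and the other CIE mice between 7.55 and 7.97. 1450184_s_at differed by 0.10 ± 0.19 and -0.23 ± 0.20. With the mean of all probesets of a gene in place of the brightest, Tef was called neither at 0h (0.15, adjusted p = 0.616) nor at 8h (-0.40, adjusted p = 0.136).

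Hlf encodes the remaining PAR activator. Its brightest probeset, 1434736_at, ran from 11.33 to 12.02 in Ctrl 0h and from 11.66 to 11.95 in CIE 0h mice, overlapping throughout, with a difference of 0.08 (95% interval -0.15 to 0.32). The differences at the other harvests were 0.15 at 8h, 0.00 at 72h and -0.22 at 7d, none called. The second probeset, 1434735_at, differed by 0.22 ± 0.09 (SE) at 0h (adjusted p = 0.0696), with all 6 CIE mice above the Ctrl mean and the groups overlapping. Against the other 18 Ctrl mice it was called (0.28, adjusted p = 0.00409).

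Nfil3, the D-box repressor, moved opposite to Dbp and Tef at 0h. Its log2 level (1418932_at) ran from 7.68 to 8.39 (median 7.89) in Ctrl 0h and from 6.89 to 7.53 (median 7.13) in CIE 0h mice. No CIE mouse reached the lowest Ctrl mouse, and the fall was 1.71-fold (log2 -0.78 ± 0.14 SE, adjusted p = 1.96e-04). Against the other 18 Ctrl mice, whose mean was 7.64, the difference was -0.48 (adjusted p = 0.00311). At 8h the CIE mice were back among the Ctrl mice, at 7.60, 7.74, 7.83, 7.85 and 8.14 against 7.10 to 8.16, and the difference was 0.09 (95% interval -0.21 to 0.39). Its sign differed between repeat groups, -0.24 within repeat group 1 and 0.48 within repeat group 2. At 72h and 7d the differences were -0.22 (interval -0.51 to 0.07) and 0.04 (interval -0.25 to 0.32).

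Of the REV-ERB genes, Nr1d2 was called at 0h and Nr1d1 at no harvest against Ctrl mice, and whether their courses differed was not tested. Nr1d2, for REV-ERB beta, was read from 1416958_at, whose spread between mice of a group was only 0.07 (pooled SD). At 0h it ran from 12.10 to 12.25 (median 12.12) in Ctrl and from 12.28 to 12.41 (median 12.35) in CIE mice. The groups did not overlap, and the rise was small, 0.19 ± 0.05 (SE) or 1.14-fold, with an adjusted p of 0.00367. The call was lost without Ctrl 0h mouse 48 (adjusted p = 0.0102) or CIE 0h mouse 67 (0.0116), each at 0.18, and against the other 18 Ctrl mice (0.10, adjusted p = 0.0564). At 8h the CIE mice were at 11.98, 12.10, 12.11, 12.11 and 12.29, against 12.08 to 12.37 in Ctrl mice, a difference of -0.15 (95% interval -0.24 to -0.05, adjusted p = 0.0434) that was not called. The second probeset, 1416959_at, had an SD of 0.68 within groups and differed by 0.54 ± 0.37 (SE) at 0h and -0.91 ± 0.39 at 8h, neither called. With group means removed it did not follow 1416958_at (r = -0.17 over 47 arrays), and with the mean of both, the difference at 0h was 0.36 and was not called (adjusted p = 0.191).

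Nr1d1, for REV-ERB alpha, had 1 probeset, 1426464_at. At 0h the CIE mice (6.83 to 7.40, median 7.08) lay within the range of the Ctrl mice (6.57 to 7.54, median 6.97), and the difference was 0.06 (95% interval -0.22 to 0.35). At 8h the CIE mice were at 6.26, 6.35, 6.37, 6.60 and 6.82, and the Ctrl mice ran from 6.76 to 7.24 (median 6.87). The groups overlapped through 1 CIE mouse, and the difference of -0.44 (95% interval -0.74 to -0.15, adjusted p = 0.0447) was not called. It was -0.38 within repeat group 1 and -0.49 within repeat group 2. Differences at 72h and 7d were -0.08 and 0.08.

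**Figure D3:**
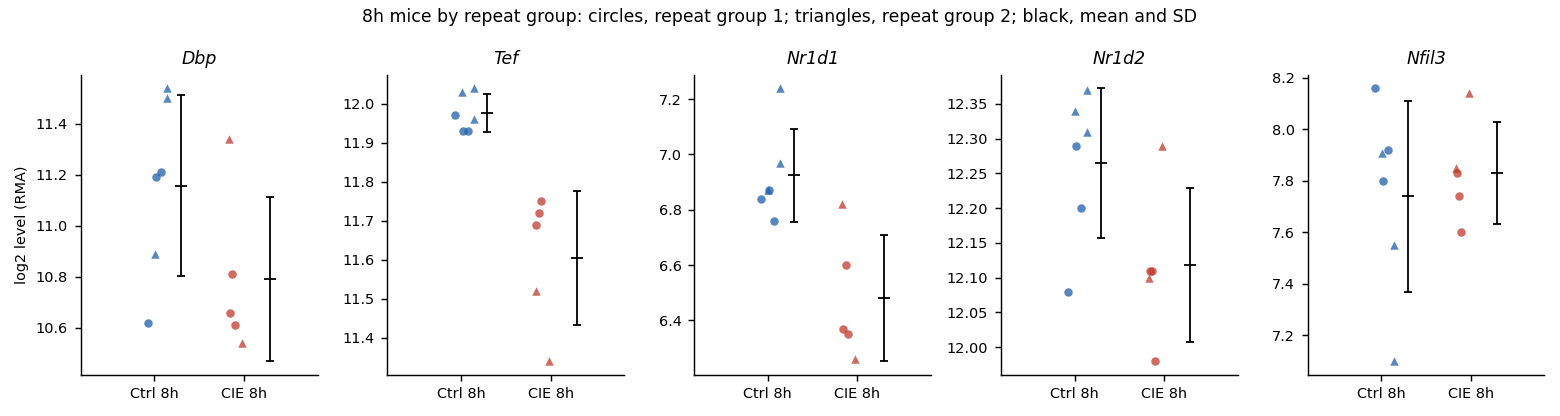
Log2 level (y axis, RMA values; ranges do not start at 0) of Dbp, Tef, Nr1d1, Nr1d2 and Nfil3 in the 8h mice, blue for Ctrl and red for CIE, with repeat group 1 as circles and repeat group 2 as triangles; black marks the mean and SD. CIE means lie below Ctrl means in both repeat groups for Dbp, Tef, Nr1d1 and Nr1d2, whereas the sign for Nfil3 differs between them.

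Rora and Rorb, for the ROR activators, were not called at any harvest in any of their 12 probesets. Rora had 9 probesets, the brightest of which (1424034_at) ran from 10.41 to 10.94 in Ctrl 0h and from 10.37 to 11.08 in CIE 0h mice, a difference of 0.03 (95% interval -0.24 to 0.29). At 8h its CIE mice were at 10.21, 10.22, 10.28, 10.31 and 10.95 and the Ctrl mice between 10.45 and 10.77, with a difference of -0.26 (interval -0.54 to 0.02). Over the 9 probesets the differences ran from -0.22 to 0.17 at 0h and from -0.73 to 0.31 at 8h. The lowest of these, 1436326_at (-0.73 ± 0.30 SE, adjusted p = 0.101), was -0.29 within repeat group 1 and -1.43 within repeat group 2. The highest, the dim 1441085_at (0.31 ± 0.09, adjusted p = 0.0284), had no overlap between CIE mice (5.72 to 6.08) and Ctrl mice (5.34 to 5.71), as did 6.37% of all probesets at 8h. Rorb, which marks cortical layer 4 neurons as well, ran from 8.99 to 9.69 in Ctrl 0h and from 8.58 to 9.96 in CIE 0h mice (1455799_at, difference -0.09, interval -0.51 to 0.33). Its 3 probesets differed by -0.30 to -0.27 at 8h and by -0.44 to -0.36 at 7d, and the smallest adjusted p at 7d was 0.216. Of 6 other layer 4 markers, 5 were lower in CIE at 7d (median -0.13) and none was called, and their average was 6.49 to 7.02 in Ctrl 7d and 6.44 to 6.92 in CIE 7d mice. The ethanol effect at 7d minus that at 72h was below 0 for all 6 (median -0.41), none called by LIMMA and 1 with an unadjusted p under 0.05. Their part in the Rorb values was not tested.

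Bhlhe40 and Bhlhe41, for the E-box repressors, were not called in CIE against Ctrl mice at any harvest. Bhlhe40 (1418025_at) varied widely between mice, with a pooled SD of 0.36 within groups. At 0h it ran from 10.80 to 11.71 in Ctrl and from 10.26 to 11.23 in CIE mice, a difference of -0.34 (95% interval -0.74 to 0.06). Bhlhe41 (1457096_at) was dim, with group means from 5.23 to 5.74. Its differences were 0.22 (interval 0.00 to 0.44) at 0h, -0.37 (-0.60 to -0.14, adjusted p = 0.0305) at 8h, 0.13 at 72h and 0.30 (0.08 to 0.52, adjusted p = 0.118) at 7d. At 8h the CIE mice were at 4.99, 5.10, 5.23, 5.35 and 5.48 and the Ctrl mice between 5.44 and 6.00. The second Bhlhe41 probeset, 1421099_at, differed by 0.08 ± 0.08 (SE) at 8h.

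**Figure D4:**
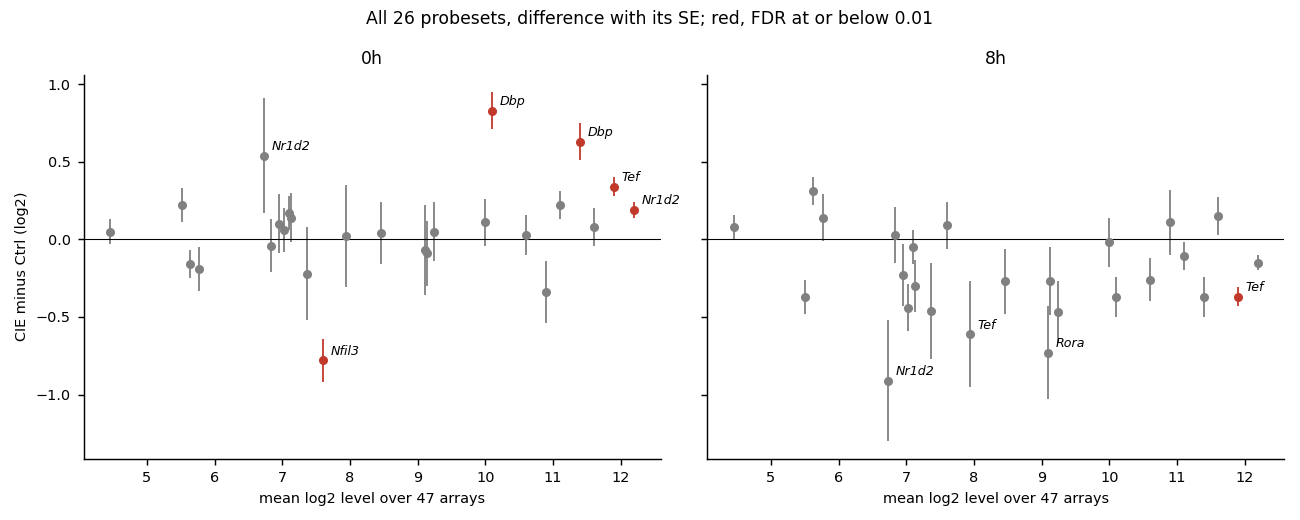
CIE minus Ctrl difference on the log2 scale with its SE (y axis) for all 26 probesets at 0h and 8h against their mean log2 level over the 47 arrays (x axis); red marks FDR ≤ 0.01, and names are given for called probesets and for differences beyond 0.5. The called probesets of Dbp, Tef and Nr1d2 lie at the bright end, and Nr1d2 1416959_at and Tef 1438033_at have the widest errors.

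The next question was whether the 8h harvest alone, with its other time of day, changed these genes in air-exposed mice. In Ctrl mice none of them was called. Almost no probeset of the array was called there, so that count does not tell these genes from the rest. Against the mean of Ctrl 0h, 72h and 7d, 0 of 26 probesets were called by LIMMA in Ctrl 8h mice, where 1 probeset of all, or 0.00222%, was called, and 2 of 26 had an unadjusted p under 0.05. Dbp differed by -0.23 (95% interval -0.43 to -0.02, adjusted p = 0.275), Nr1d1 by -0.18 (-0.42 to 0.05), Tef by 0.08 (-0.02 to 0.18), Nr1d2 by 0.06 (-0.02 to 0.13) and Bhlhe41 by 0.18 (0.00 to 0.36). When arrays were weighted by their quality, Dbp 1438211_s_at (-0.30, adjusted p = 0.00474) and Bhlhe41 1421099_at (0.24, adjusted p = 3.65e-04) were called, and in repeat group 1 alone the Dbp difference was -0.38 (adjusted p = 0.0279). Ctrl 0h mice stand in this pooled reference and were as low in Dbp 1438211_s_at (11.16) as Ctrl 8h mice, against 11.50 and 11.49 in Ctrl 72h and 7d. Against Ctrl 0h, 72h and 7d taken singly, LIMMA called 0 of 26 each time, where 1.43%, 0.00% and 0.0111% of all probesets were called. The unadjusted p was under 0.05 for 5, 2 and 3 of the 26.

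In CIE mice the same contrast called 6 of 26 probesets of 5 genes, all lower at 8h, where 5.01% of all probesets were called and 1.89% were lower. Dbp fell by 0.78 (1438211_s_at, 1.71-fold, adjusted p = 1.32e-05) and by 0.84 (1418174_at, 1.79-fold, adjusted p = 3.57e-06). Tef fell by 0.38 (adjusted p = 8.41e-06), and its 5 CIE 8h mice lay below all 18 other CIE mice. The share of all probesets without overlap in this contrast is not given here. Nr1d1 fell from 7.13 to 6.48, or 1.56-fold (adjusted p = 5.54e-04), Nr1d2 by 0.18 (0.00260) and Bhlhe41 by 0.41 (0.00342). All 5 CIE 8h mice lay below the mean of the other CIE mice for each of these 6 probesets, which were picked out by this same contrast. Nfil3 was higher by 0.44 and was not called (adjusted p = 0.0147). Without CIE 8h mouse 51 the calls of Nr1d2 (-0.14, adjusted p = 0.0189) and Bhlhe41 (-0.35, 0.0177) were lost, and without mouse 23 that of Bhlhe41 (-0.38, 0.0148). In repeat group 1 alone Bhlhe41 was not called (-0.41, adjusted p = 0.0235), whereas Dbp (-0.87), Tef (-0.26), Nr1d1 (-0.68) and Nr1d2 (-0.23) were. The CIE 0h mice stand in this reference and were high in Dbp, Tef and Nr1d2. Against the Ctrl mice of 0h, 72h and 7d instead, a comparison chosen after the values were seen, 10.4% of all probesets were called and CIE 8h mice were lower in Dbp (-0.59, adjusted p = 1.42e-04), Tef (-0.29, 7.42e-05) and Nr1d1 (-0.63, 3.53e-04), and neither Nr1d2 (-0.09, 0.102) nor Bhlhe41 (-0.20, 0.140) was called. In that comparison Rora 1441085_at was called higher (0.28, adjusted p = 0.00919). The Ctrl mice of that comparison were all killed at another time of day than the CIE 8h mice. Ethanol and time of day therefore cannot be told apart in it.

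**Figure D5:**
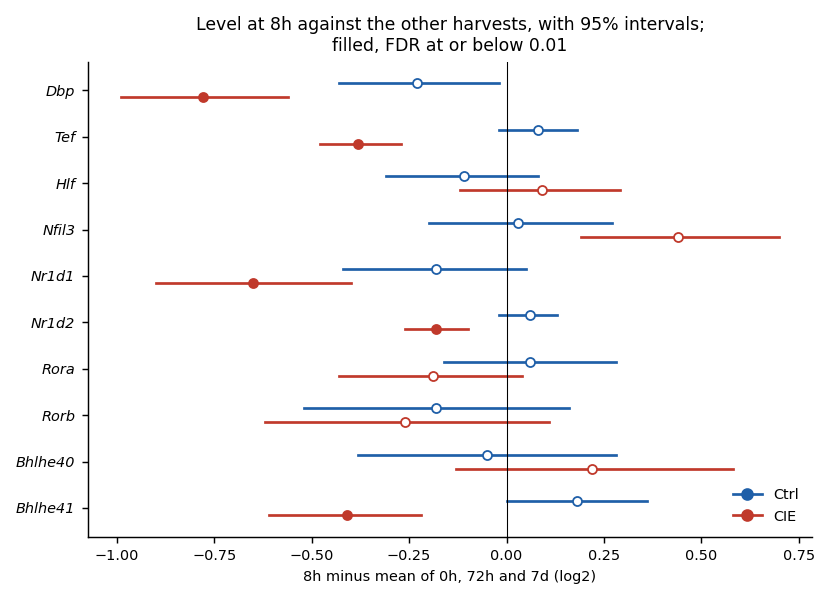
Log2 difference between the 8h harvest and the mean of the 0h, 72h and 7d harvests (x axis) for the brightest probeset of each gene (y axis), Ctrl in blue and CIE in red, with 95% confidence intervals; filled circles mark FDR ≤ 0.01. Dbp, Tef, Nr1d1, Nr1d2 and Bhlhe41 are filled in CIE, at -0.78, -0.38, -0.65, -0.18 and -0.41, and none in Ctrl.

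The difference between the 8h contrast of CIE and that of Ctrl mice was itself tested. It equals the ethanol effect at 8h minus the mean ethanol effect at 0h, 72h and 7d, so rises in CIE mice at those harvests add to it. At 0h such rises were 0.83 for Dbp 1418174_at, 0.34 for Tef and 0.19 for Nr1d2, and Bhlhe41 was higher, uncalled, at each of those harvests. The difference of the contrasts is given next. It was called for 4 of 26 probesets, all more negative in CIE, where 1.90% of all probesets were called and 0.695% were more negative. These were Tef (-0.46 ± 0.07 SE, adjusted p = 2.12e-04), Dbp 1418174_at (-0.68 ± 0.15, 0.00413), Bhlhe41 (-0.59 ± 0.13, 0.00489) and Nr1d2 (-0.24 ± 0.06, 0.00756). Dbp 1438211_s_at (-0.55, adjusted p = 0.0184) and Nr1d1 (-0.46, 0.0811) were not called. Tef alone of the 4 was also called in CIE against Ctrl mice at 8h. With the repeat group 1 arrays alone none was called, and the adjusted p values were 0.0135 for Tef (-0.31), 0.0236 for Dbp 1418174_at (-0.59), 0.0371 for Nr1d2 (-0.21) and 0.0501 for Bhlhe41 (-0.51). Without mouse 15, 3 of 26 were called here, 6 in the contrast within CIE mice and 1 in CIE against Ctrl at 8h. Tef alone of the 4 was called without each array in turn. The Dbp call was lost without mouse 15 (-0.58, adjusted p = 0.0162), Ctrl 8h mouse 42 or CIE 8h mouse 69, that of Bhlhe41 without Ctrl 8h mouse 32 or CIE 8h mouse 51 or 23, and that of Nr1d2 without any 1 of 10 arrays (Ctrl 8h mice 66, 32, 42 and 50, CIE 8h mice 40, 51, 69 and 23, CIE 72h mouse 35 and CIE 7d mouse 27), with adjusted p values up to 0.0219.

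The ethanol effect, CIE minus Ctrl, was also compared between harvests. From 0h to 8h it moved down for Dbp by 0.99 (1438211_s_at, adjusted p = 3.66e-04) and by 1.20 (1418174_at, 3.66e-05), for Tef by 0.71 (2.08e-06) and for Nr1d2 by 0.34 (0.00110), and up for Nfil3 by 0.87 (0.00536). These are 5 of 26 probesets, where 3.41% of all probesets were called. With only the contrasted groups fitted, the Nr1d2 call was lost (adjusted p = 0.0155), and with the mean of all probesets of a gene those of Nr1d2 (-0.89, 0.0292) and Tef (-0.55, 0.158) were lost. The Nfil3 call was lost in repeat group 1 alone (0.54, adjusted p = 0.117) and without any 1 of 6 arrays (Ctrl 0h mouse 12, Ctrl 8h mice 42 and 50, CIE 0h mice 67 and 72 and CIE 8h mouse 15), with adjusted p values up to 0.0126. From 0h to 72h the effect moved down for Tef by 0.39 (0.00316) and for Dbp 1418174_at by 0.78 (0.00547), where 1.80% of all probesets were called. The Tef call was lost with only the contrasted groups fitted (adjusted p = 0.0107) and with the mean of all probesets (-0.20, 0.720). The Dbp call was lost without any 1 of 7 arrays (Ctrl 0h mouse 48, Ctrl 72h mice 24 and 52, CIE 0h mice 11 and 43 and CIE 72h mice 3 and 71), with adjusted p values up to 0.0121. From 8h to 7d the effect on Bhlhe41 moved up by 0.67 (0.00785), a call that was lost without any 1 of 16 of the 23 arrays (adjusted p up to 0.0168), where again 1.80% of all probesets were called. These comparisons share groups with each other and with those above.

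The rest of the clock was read from a list of 16 core loop genes, of which 14 were measured. At 0h only Timeless was called, 0.29 lower in CIE mice (adjusted p = 0.00583). Of all probesets, 7.28% were called at 0h, 3.39% at 8h and 5.01% in CIE 8h against the other CIE groups. The 1 call of 14 at 0h lies near the share for all probesets. At 8h Npas2, a partner of BMAL1, rose by 0.44 (from 8.79 to 9.23, adjusted p = 0.00296) and Cry1, an inhibitor of the loop, by 0.53 (from 7.64 to 8.16, 0.00633) against Ctrl mice, and no gene of the list fell. Against the other CIE groups, Cry1 (0.54), Arntl (0.46) and Npas2 (0.37) rose at 8h, the harvest at which Dbp, Tef, Nr1d1, Nr1d2 and Bhlhe41 were lower. The median difference of the list at 8h against Ctrl was -0.02. In Ctrl 8h against the other Ctrl groups none of the 14 was called by LIMMA, where 0.00222% of all probesets were called, and 1 had an unadjusted p under 0.05. Of 16 further clock outputs and known targets, 12 were measured. In CIE 8h against the other CIE groups Ciart, a repressor of the clock, fell from 8.89 to 7.66 (adjusted p = 3.57e-06), Fabp7, a brain fatty acid-binding protein under REV-ERB control, by 0.55, and Gsk3b, a kinase, by 0.34. Fabp7 fell at 0h too, by 0.78 against Ctrl (adjusted p = 5.02e-04), and Cdkn1a, a cell cycle inhibitor, rose by 0.78 at 8h. Of 9 listed corepressors and coactivators 7 were measured, and LIMMA called none at 0h or 8h (unadjusted p under 0.05 for 0 and 1).

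Across the 47 arrays, the genes whose log2 levels were most like those of Dbp were Ciart (Pearson r = 0.837), Psd4 (0.740), D430019H16Rik (0.738), Hnrnpdl (0.721) and Myh7b (0.720). Those most like Nr1d1 were Foxred2 (0.791), Mdp1 (0.749), Pla2g4e (0.749), Ncapd2 (0.715) and Alad (0.712). All 47 points share the treatment and time groups, so these values describe likeness over this design.

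Other gene groups moved at the same harvests. Of all probesets, 7.28% were called at 0h, 3.69% higher and 3.58% lower, and 3.39% at 8h, 2.28% higher. Of 16 immediate early genes, which respond to neuronal activity, all 16 were lower in CIE at 0h and 6 fell, with a median difference of -0.72 against 0.00 over all probesets, and their average level was 9.08 to 10.31 in Ctrl 0h and 8.07 to 8.90 in CIE 0h mice. Ctrl 0h mice were themselves higher in all 16 than the mean of Ctrl 72h and 7d mice (median 0.49), and 1 was called, where 2.34% of all probesets were. Against the other 18 Ctrl mice the CIE 0h mice were lower in 15 (median -0.40) and 2 fell, where 4.18% of all probesets fell. Of 15 glucocorticoid-responsive genes, all 15 were higher in CIE at 0h (8 rose, median 0.48) and at 8h (6 rose, median 0.40), with averages of 9.75 to 10.01 in Ctrl 0h, 9.94 to 10.99 in CIE 0h, 9.59 to 9.82 in Ctrl 8h and 10.05 to 10.49 in CIE 8h mice. The clock gene Per1 and Cdkn1a, given above among clock targets, belong to this list, so it is not separate from the clock lists. The part of the immediate early or the glucocorticoid-responsive genes in the results for the clock factors was not tested. All 11 measured striatal markers were higher in CIE at 0h (median 0.56, none called by LIMMA and 7 with an unadjusted p under 0.05), with an average of 8.37 to 10.28 in CIE 0h mice. With that average as a term in the fit the differences at 0h were 0.54 for Dbp, 0.30 for Tef, -0.80 for Nfil3 and 0.20 for Nr1d2, and all were called, with adjusted p values of 0.00407, 9.19e-04, 5.03e-04 and 0.00630. The average was itself higher in CIE 0h (9.14 ± 0.83 SD) than in Ctrl 0h mice (8.39 ± 0.18). This fit therefore cannot separate it from the ethanol effect, and the part of striatal tissue was not tested. Of 7 measured microglial markers, 3 were higher and 4 lower in CIE at 0h and again at 8h (median -0.04 each time). Fcrls fell at 0h (-1.29), and Fcrls (-0.89) and P2ry12 (-0.57) fell at 8h. The part of the microglial markers in the results was not tested. Of 9 cortical neuron markers 5 were higher and 4 lower at 0h, where Neurod2 rose (0.43) and Neurod6 fell (-0.38). Of 6 layer 4 markers 4 were higher and 2 lower at 0h (median 0.13), where Kcnh5 fell (-0.74). Of 6 choroid plexus markers 3 were higher and 3 lower at 0h, where Clic6 rose (0.51) and Kl fell (-0.46). At 8h 2 of the choroid plexus markers were higher and 4 lower (median -0.13), and Clic6 rose (0.61). The part of these markers was not tested either. No astrocyte (8 measured), oligodendrocyte (7) or endothelial (6) marker was called at 0h or 8h by LIMMA, and unadjusted p values under 0.05 were found for 0, 0 and 0 of them at 0h and for 1, 1 and 2 at 8h.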

How the data were processed

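The authors deposited log2 expression values for 47 Affymetrix arrays of mouse medial PFC. Per the paper's methods they applied robust multi-array averaging (RMA) within hybridization batches, quantile normalization, and ComBat with repeat group as the batch. No background-to-signal measure is in the values used. The number of arrays limits precision. Probesets were named from the platform annotation; 34945 had 1 symbol, 932 several and 9160 none listed. No sample column was left out. LIMMA (limma 3.58.1, R 4.3.3) was fitted to 8 group means over all 45037 probesets and all arrays, with Benjamini-Hochberg adjustment and a call at FDR ≤ 0.01; intervals are 95% and the fit was tested on simulated data. Each array is 1 mouse, so errors are between animals. Genes were named by rule: all 10 members by their brightest probeset, other member probesets where called, and called genes of the other lists. Members, lists and rule were chosen with earlier results of these data known. Alternatives were array weights, repeat group as a term or repeat group 1 alone, a trended robust variance prior, probesets with a mean log2 level of at least 5, a striatal marker term, the contrasted groups alone, the mean of a gene's probesets, FDR ≤ 0.05 and leaving out each array. A reference of the other Ctrl mice was added after the values were seen.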

Additional observations from a re-analysis of the deposited data

Results flagged for a closer look

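Of 80 groups of the 10 brightest probesets examined for a mouse set apart from its group, 7 held one, where chance gives about 1 in 20. These were Hlf in Ctrl 8h mouse 50 (11.26, nearest 11.56), Nfil3 in Ctrl 7d mouse 46 (7.98, nearest 7.54) and in CIE 7d mouse 13 (8.15, nearest 7.62), Rora in CIE 8h mouse 40 (10.95, nearest 10.31), Rorb in Ctrl 0h mouse 56 (9.69, nearest 9.21), Bhlhe40 in CIE 72h mouse 33 (10.27, nearest 11.01) and Bhlhe41 in Ctrl 8h mouse 32 (6.00, nearest 5.60). None lay in a 0h group of Dbp, Tef, Nfil3 or Nr1d2, the genes called at 0h.

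For 5 genes the ethanol effect differed between harvests by a test of the difference (LIMMA). From 0h to 8h it changed by -0.99 for Dbp, -0.71 for Tef, -0.34 for Nr1d2 and 0.87 for Nfil3. From 0h to 72h it changed by -0.39 for Tef, and from 8h to 7d by 0.67 for Bhlhe41. The 8h contrast of CIE minus that of Ctrl mice was -0.46 for Tef, -0.24 for Nr1d2 and -0.59 for Bhlhe41, where 1.90% of all probesets were called. The calls of this contrast were lost in repeat group 1 alone and with the mean of all probesets of a gene. Of the changes listed here, that of Dbp alone was called under every alternative run.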

How the results depend on the processing

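The number of members called at 8h, 1 in the fit as reported, was 4 with array weights, 5 at FDR ≤ 0.05, 5 against the other Ctrl mice, 0 in repeat group 1 alone and 0 with only the 8h groups fitted. Against the other Ctrl mice, all killed at another time of day, 10.4% of all probesets were called in place of 3.39%, and of the 5 members 4 fell and 1 rose. The shares of all probesets with array weights and at FDR ≤ 0.05 are not given here, so those counts describe the setting only. The number called in Ctrl 8h against the other Ctrl groups, 0 as reported, was 2 with array weights, and the number whose 8h contrast differed between CIE and Ctrl, 4 as reported, was 0 in repeat group 1 alone. Leaving out each array gave 4 to 5 members called at 0h, 1 to 2 at 8h, 0 to 0 at 72h and 7d and in the Ctrl contrast, 5 to 7 in the CIE contrast, 2 to 5 for the difference of the contrasts and 5 to 6 for the differences between harvests. No called value changed sign under any alternative run. With the mean of all probesets of a gene, the calls of Tef, Nr1d2 and Bhlhe41 were lost in both the CIE contrast and the difference of the contrasts, and with only the contrasted groups fitted those of Nr1d2 at 0h and in the CIE contrast were lost. Among 97 differences that no setting called, 111 of 2844 alternative values had the other sign. No paired analysis was possible because the mouse numbers in the labels are not shared between groups. Repeat group 2 contributes 5 of the 11 mice at 8h. The cause of these shifts was not tested.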

Other observations

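The probesets Nr1d2 1416959_at and Rora 1436326_at were low together in the same arrays. In Ctrl 0h mice 2 and 20, Nr1d2 1416959_at was at 5.33 and 4.66 and the other Ctrl 0h mice were at 6.43 to 7.03. In CIE 0h mice 17 and 5 it was at 5.44 and 5.77, against 7.10 to 7.36 in the others, and in CIE 8h mice 15 and 23 at 5.13 and 5.37, against 6.85 to 7.04. Rora 1436326_at was at 8.34 and 8.14 in Ctrl 0h mice 2 and 20, at 8.07 and 8.45 in CIE 0h mice 17 and 5 and at 7.77 and 8.15 in CIE 8h mice 15 and 23, the lowest values of their groups. Other member probesets were low there too. In the same order of mice, Tef 1438033_at was at 7.29 and 7.19, 6.77 and 7.71, and 5.77 and 7.56, with CIE 8h mouse 40 at 7.55. Rora 1458129_at was lowest of these groups in the same 6 mice, at 7.09 and 6.38, 6.07 and 6.65, and 6.16 and 6.73. These 6 arrays also had the lowest mean correlations of their groups, 0.987 and 0.988, 0.985 and 0.989, and 0.967 and 0.988. CIE 72h mouse 3 was lowest of its group in Nr1d2 1416959_at (5.33), in Rora 1436326_at (7.78) and in correlation (0.986), and so was Ctrl 7d mouse 46 (5.97, 8.61 and 0.990). Ctrl 72h mouse 24 and CIE 7d mouse 7 were lowest of their groups in Nr1d2 1416959_at and Rora 1436326_at (6.24 and 8.67, 6.97 and 8.70), at correlations of 0.991 and 0.992. In Ctrl 8h different mice were lowest in these 2 probesets. The brightest Nr1d2 probeset was not lowest in CIE 8h mouse 15, at 12.29 the highest of its group.

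Both Dbp probesets and Bhlhe41 1457096_at were lower in Ctrl 0h than in the mean of Ctrl 72h and 7d mice, by 0.34 and 0.51 and by 0.27, and Nfil3 was 0.35 higher, although these harvests lie whole days apart and no mouse had received ethanol. Only Dbp 1418174_at was called (adjusted p = 0.00251, LIMMA), and the values for Dbp 1438211_s_at, Bhlhe41 and Nfil3 were 0.0461, 0.0695 and 0.0732.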
